A study of Caenorhabditis elegans with 2 samples.

Results

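Small nucleolar RNA (snoRNA) genes that lie inside protein-coding genes were examined for binding by LIR-3 in Caenorhabditis elegans. They were taken from the Ensembl annotation of assembly WBcel235, the same assembly as ce11, as every gene of biotype snoRNA wholly inside the span of a protein-coding gene on a nuclear chromosome. The rule found 216 of the 346 annotated nuclear snoRNA genes, and the other 130 are not nested. All nuclear genes other than piRNA genes number 31527. Of these 130, 6 overlap a protein-coding span in part.

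Binding was measured by chromatin immunoprecipitation with sequencing (ChIP-seq) with an antibody to GFP. The animals were whole hermaphrodite L4 larvae of strain OP312, grown for 48 hours after release from starvation at L1. Their genotype is unc-119(ed3) III with the transgene wgIs312, which adds LIR-3 carrying a GFP-FLAG tag at its C-terminus, so all peaks report the tagged protein in 1 transgenic line. There is 1 group of 2 biological replicates and no untagged or mutant group, and the comparisons are therefore between kinds of gene and between the replicates. The summit, the position of highest signal within a peak, was read in 4 lists: the 552 peaks that passed the irreproducible discovery rate (IDR) procedure, and the relaxed lists of the pooled replicates (20360 peaks), replicate 1 (17311) and replicate 2 (20601). Relaxed lists hold background regions by design. Read depth is unknown, and each peak's signal is the authors' own score, used here only to rank peaks within a list.

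In background, snoRNAs are short nuclear RNAs that guide the chemical modification of other RNAs, above all ribosomal RNA. Box C/D snoRNAs guide ribose methylation with the methyltransferase fibrillarin, and box H/ACA snoRNAs guide pseudouridylation with dyskerin. Many snoRNAs of animals lie in introns of other genes and are cut out of the spliced host transcript. Others are transcribed from a promoter of their own. For tRNA genes, RNA polymerase III is recruited through an A box and a B box that lie inside the gene. LIR-3 belongs to the LIN-26-related family of zinc-finger proteins.

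Of the 34 nested snoRNA genes with a peak in the IDR list, 20 had a match to a box of tRNA promoters in narrow ranges just upstream of the RNA. The ranges were set after box positions at genes with peaks had been seen, so this count is a description. Of all nuclear genes, 0.768% had the A box and 0.517% the core of the B box in its range. The next lines show such start regions, each from 100 bases upstream of the snoRNA start through the first 10 bases of the RNA, 5′ to 3′ on the snoRNA strand, from the RefSeq genome of WBcel235 (ce11 coordinates). These are 7 of the 8 members that have an IDR summit, an A box match with its left end from -75 to -50 bp of the start and a match to GTTCNANNC, the core of the B box, with its left end from -25 to 0 bp. Capitals mark the A box on the left and GTTCNANNC on the right.
T03F7.8, chrV:11314158-11314267, plus strand: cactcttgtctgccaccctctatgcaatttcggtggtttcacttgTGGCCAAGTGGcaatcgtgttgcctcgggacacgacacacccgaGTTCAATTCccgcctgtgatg
F55A11.10, chrV:11782892-11783001, plus strand: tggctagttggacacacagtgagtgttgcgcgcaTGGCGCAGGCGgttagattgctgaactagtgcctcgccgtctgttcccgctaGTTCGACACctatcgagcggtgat
Y43F8C.22, chrV:19643178-19643287, minus strand: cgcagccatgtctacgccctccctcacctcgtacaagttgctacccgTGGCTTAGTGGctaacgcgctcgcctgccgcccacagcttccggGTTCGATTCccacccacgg
C04G6.12, chrII:5105222-5105331, minus strand: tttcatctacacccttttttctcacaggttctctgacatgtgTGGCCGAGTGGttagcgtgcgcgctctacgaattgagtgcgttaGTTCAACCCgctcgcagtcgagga
T24H7.6, chrII:6248617-6248726, plus strand: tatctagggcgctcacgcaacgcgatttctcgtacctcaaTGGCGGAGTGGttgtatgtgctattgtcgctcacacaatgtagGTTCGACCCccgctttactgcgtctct
F11A10.9, chrIV:12086609-12086718, plus strand: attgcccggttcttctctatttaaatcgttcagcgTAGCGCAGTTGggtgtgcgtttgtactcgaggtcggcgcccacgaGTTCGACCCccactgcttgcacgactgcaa
M106.6, chrII:10840217-10840326, plus strand: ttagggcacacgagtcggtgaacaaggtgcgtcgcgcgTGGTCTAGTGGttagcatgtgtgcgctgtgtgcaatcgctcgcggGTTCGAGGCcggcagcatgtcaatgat

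A smaller set carried another element. In the next 4 regions, read in the same way, capitals mark an 18-base pattern made of CGNAACNCG, then 5 bases of any kind, then TGTC. It was written down after these start regions had been seen, so its presence in them is no finding.
ZK994.7, chrV:8500479-8500588, plus strand: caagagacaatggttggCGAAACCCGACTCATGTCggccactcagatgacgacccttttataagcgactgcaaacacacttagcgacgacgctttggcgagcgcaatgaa
F01D5.12, chrII:14018432-14018541, minus strand: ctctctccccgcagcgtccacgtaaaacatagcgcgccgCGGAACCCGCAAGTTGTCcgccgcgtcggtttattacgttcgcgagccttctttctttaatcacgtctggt
C16D9.11, chrV:8228960-8229069, minus strand: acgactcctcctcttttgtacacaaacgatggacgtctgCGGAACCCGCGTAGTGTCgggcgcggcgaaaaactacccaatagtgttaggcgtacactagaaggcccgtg
C08D8.3, chrV:8349008-8349117, plus strand: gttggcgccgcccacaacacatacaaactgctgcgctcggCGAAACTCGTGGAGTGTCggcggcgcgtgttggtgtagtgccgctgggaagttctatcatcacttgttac

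Of the 216 nested snoRNA genes, 34 had an IDR summit from 500 bp upstream to 200 bp downstream of the start (15.7%, 95% Wilson interval 11.5 to 21.2). The background share was 2.36% of all nuclear genes, with 0.976% of protein-coding genes. The 34 genes lie at 33 distinct peaks and in 33 host genes, because C51F7.3 and C51F7.4 share a peak in frm-7. A summit of the pooled relaxed list was in the window of 95 members (44%, 37.5 to 50.6, background 20.8%). Of these, 61 had no IDR summit (28.2% of members, background 18.5%). The remaining 121 members had no pooled summit (56%, background 79.2%). Read by replicate, 55 members had a summit in both relaxed lists (25.5%, background 10.2%) and 101 in neither (46.8%, background 71.5%). In the list of replicate 1 alone 22 had one (10.2%, 6.82 to 14.9), an interval that includes the background of 7.91%. In that of replicate 2 alone 38 had one (17.6%, 13.1 to 23.2, background 10.4%). Intervals here cover counting error over genes only.

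The share of genes with an IDR summit was 15.7% of nested snoRNA genes and 20% (14 to 27.7) of the 130 snoRNA genes that are not nested, a difference of -4.26 percentage points (95% interval -13 to 3.82, by combining the Wilson limits). The interval includes 0, and when only genes wholly inside 1 intron were counted as nested the sign of the difference turned, to 1.31 points. For scale, 33.4% (28.3 to 39.1) of the 290 tRNA genes nested in protein-coding genes had an IDR summit. No test over samples was possible for these shares, since both replicates belong to 1 group. With the 276 strongest IDR peaks alone the count of nested snoRNA genes was 25 (background 1.17%), with 1000 bp upstream 41 (background 2.83%), with 250 bp upstream to 50 bp downstream 28 (background 1.41%), and with any part of an IDR peak in the window 39 (background 2.72%).

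**Figure D1:**
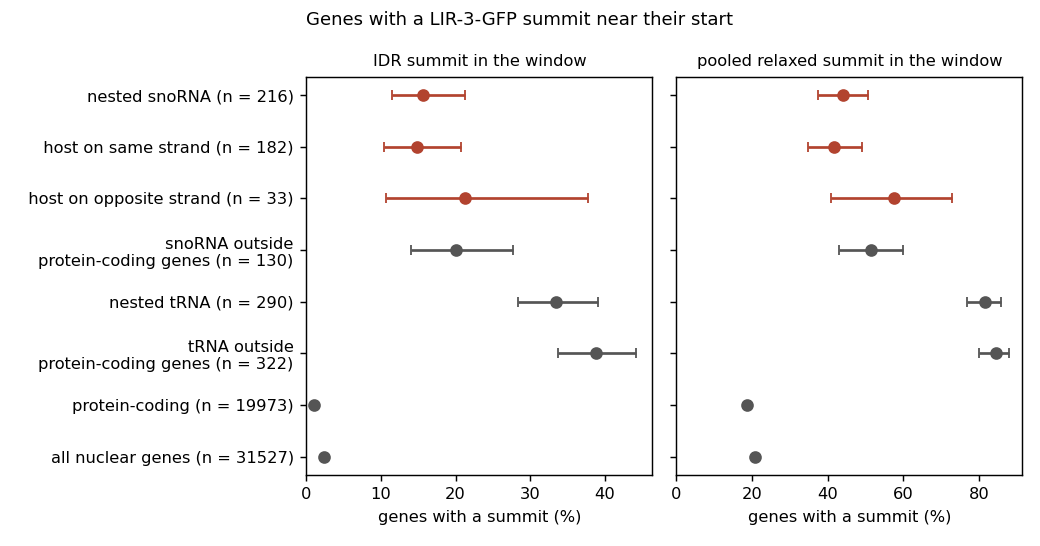
Share of genes (%) with a summit from 500 bp upstream to 200 bp downstream of the start, in the IDR list (left) and the pooled relaxed list (right); points are shares and bars 95% Wilson intervals. The 216 nested snoRNA genes stand at 15.7% and 44%, all nuclear genes at 2.36% and 20.8%.

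The replicates ranked the 34 genes high in their own lists. The strongest summit in the window ranked from 27 to 841 in the list of replicate 1 (median 145.5) and from 21 to 661 in that of replicate 2 (median 183.5). Within the 552 strongest peaks of each list lay 33 of the 34 for replicate 1, 32 for replicate 2 and 31 for both. The 552 IDR peaks are the 552 strongest of the pooled list, which is derived from these same replicates. High ranks in both replicates therefore describe the selection and are no independent measure. Taking the 552 strongest peaks of a replicate alone, without IDR, 36 members had a summit for replicate 1 (background 2.16%) and 33 for replicate 2 (background 2.29%). Outside the 34, 0 members were within the 552 strongest of both replicates. That count too follows in large part from the selection and is no independent measure. The replicates placed their summits a median of 25 bp apart, with 23 of 34 pairs within 50 bp and the widest pair 206 bp apart.

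**Figure D2:**
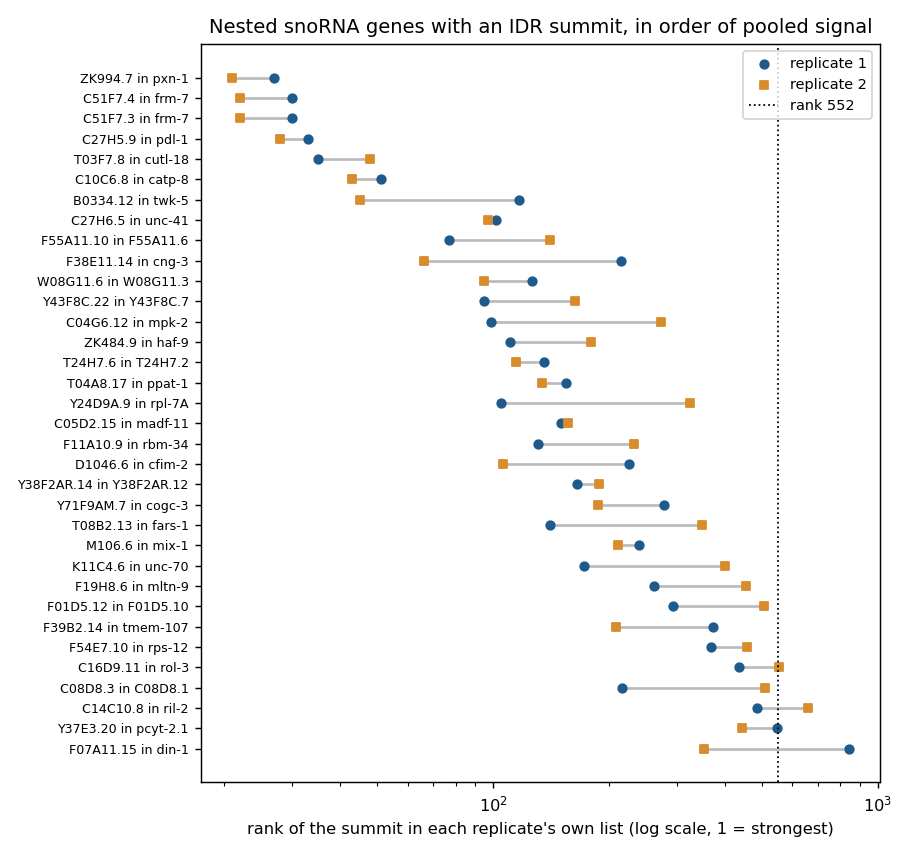
Rank of the strongest summit in the window in the list of replicate 1 (circles) and replicate 2 (squares), on a log axis where 1 is the strongest peak, for the 34 nested snoRNA genes with an IDR summit, each named with its host. The dotted line is rank 552; replicate 1 has 33 and replicate 2 has 32 genes to its left.

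The strongest of the 34 was ZK994.7 in pxn-1, which encodes a peroxidasin. Its signal was 213.9 in replicate 1 (rank 27) and 221.7 in replicate 2 (rank 21), with the pooled summit 8 bp upstream of the start (position -8). The snoRNA gene starts 5690 bp inside its host on the host's strand and carries the 18-base element shown above. The left end of the element lay at -83 bp. At the other members with the element on the snoRNA strand, its left end lay from -64 to -57 bp. The shared peak of C51F7.3 and C51F7.4 followed, with 193.6 in replicate 1 (rank 30) and 205.4 in replicate 2 (rank 22). Its summit was at -77 bp from the start of C51F7.3 and at 32 bp from that of C51F7.4, inside the upstream gene. The region before C51F7.3, in which capitals again mark A box and GTTCNANNC matches, overlaps the body of C51F7.4, in which these matches lie.
C51F7.3, chrV:12303608-12303717, plus strand: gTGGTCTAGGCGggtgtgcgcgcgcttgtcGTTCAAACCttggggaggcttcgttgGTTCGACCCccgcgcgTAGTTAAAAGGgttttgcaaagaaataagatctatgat

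The RNA of C51F7.3 itself has the boxes of a C/D snoRNA, with the C box TGATGA near its 5′ end and the D box CTGA near its 3′ end in capitals. That of W08G11.6, another member with an IDR summit, has the ACA of the H/ACA class before its 3′ end.
C51F7.3 RNA, chrV:12303708-12303783, plus strand: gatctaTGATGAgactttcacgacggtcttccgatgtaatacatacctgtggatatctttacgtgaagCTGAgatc
W08G11.6 RNA, chrV:16370219-16370355, plus strand: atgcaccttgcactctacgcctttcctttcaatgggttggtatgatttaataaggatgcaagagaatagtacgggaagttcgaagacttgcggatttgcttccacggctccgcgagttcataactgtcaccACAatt

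These box rules sorted few members. TGATGA within the first 20 bases with CTGA within the last 20 was found in 9 members, of which 2 had an IDR summit. ACA ending 3 to 5 bases before the 3′ end, with neither of those boxes, was found in 47 members, of which 10 had an IDR summit (21.3%, 12 to 34.9). The other 160 met neither rule, and 22 of them had an IDR summit (13.8%, 9.26 to 19.9). The background for these counts was 2.36%. The intervals overlap, and the rules depend on the annotated ends of the RNAs.

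Most IDR summits lay within 100 bp upstream of the RNA. The median position was -28 bp (quartiles -54.75 and 1.25, n = 34). Of the 34 summits 25 were upstream of the start, 23 of them by at most 100 bp, 7 were inside the snoRNA gene and 2 beyond its end. At the 26 snoRNA genes that are not nested and had an IDR summit, the median was -35.5 bp (quartiles -47.25 and -7). The 61 members with only a pooled relaxed summit were spread more widely: their median was -49 bp, with quartiles of -338 and 70, and 11 of 61 lay within 100 bp upstream. Nearest the edges of the window on the inside were B0334.12, with its summit 113 bp downstream of the start, and C08D8.3, with its summit 100 bp downstream. Nearest on the outside were C06A1.9 in cdc-48.1, whose closest IDR summit was at -509 bp, and Y55F3BR.9 in Y55F3BR.2, at 222 bp.

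**Figure D3:**
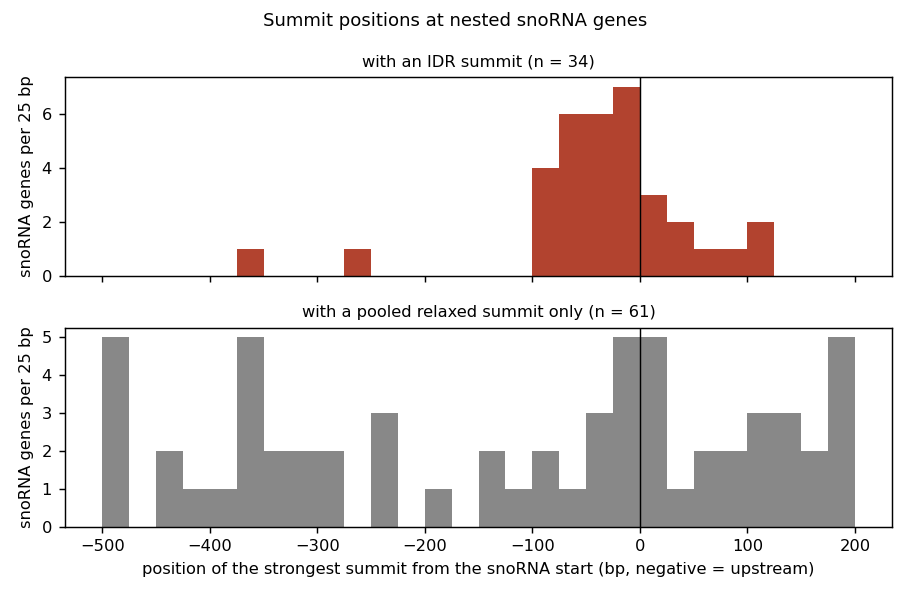
Number of nested snoRNA genes per 25 bp of summit position relative to the snoRNA start (bp, negative upstream), for the 34 with an IDR summit (top) and the 61 with only a pooled relaxed summit (bottom). The upper distribution is centred at -28 bp with 23 genes within 100 bp upstream; the lower one is spread over the whole window.

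Promoter boxes were counted in the 300 bases from 250 upstream of each start through the first 50 of the gene, on either strand. The A box, searched as its usual 11-letter consensus, matched at 20 of the 34 genes with an IDR summit (58.8%, 42.2 to 73.6), at 20 of 61 with only a pooled relaxed summit (32.8%), at 28 of 121 with no pooled summit (23.1%) and at 19.4% of all nuclear genes. GTTCNANNC matched at 15 of 34 (44.1%, 28.9 to 60.5), 10 of 61 (16.4%), 12 of 121 (9.92%) and 10.7% of all nuclear genes in the same order. Each pattern was counted separately, whether or not its matches overlapped those of another. For TATAAA the shares were 17.6% (8.35 to 33.5), 18% and 24%, against 34.2% of all nuclear genes.

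Most boxes at the genes with peaks lay in a narrow range. Of the 34 genes, 17 had an A box on the snoRNA strand with its left end from -75 to -50 bp (50%, against 0.768% of all nuclear genes), and 11 had GTTCNANNC with its left end from -25 to 0 bp (32.4%, against 0.517%). These ranges were set after the positions had been seen, so the counts are a description. In the 8 genes with both boxes in place, the left ends lay 43 to 52 bp apart (median 44.5), and in 5 of these 8 the IDR summit fell between the start of the A box and the end of the other box. The 8 are the 7 shown above and T08B2.13 in fars-1. In tRNA genes, where the boxes lie downstream of the start, only 2 of 612 had an A box in that upstream range, although 97.2% had an A box somewhere in the 300 bases.

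**Figure D4:**
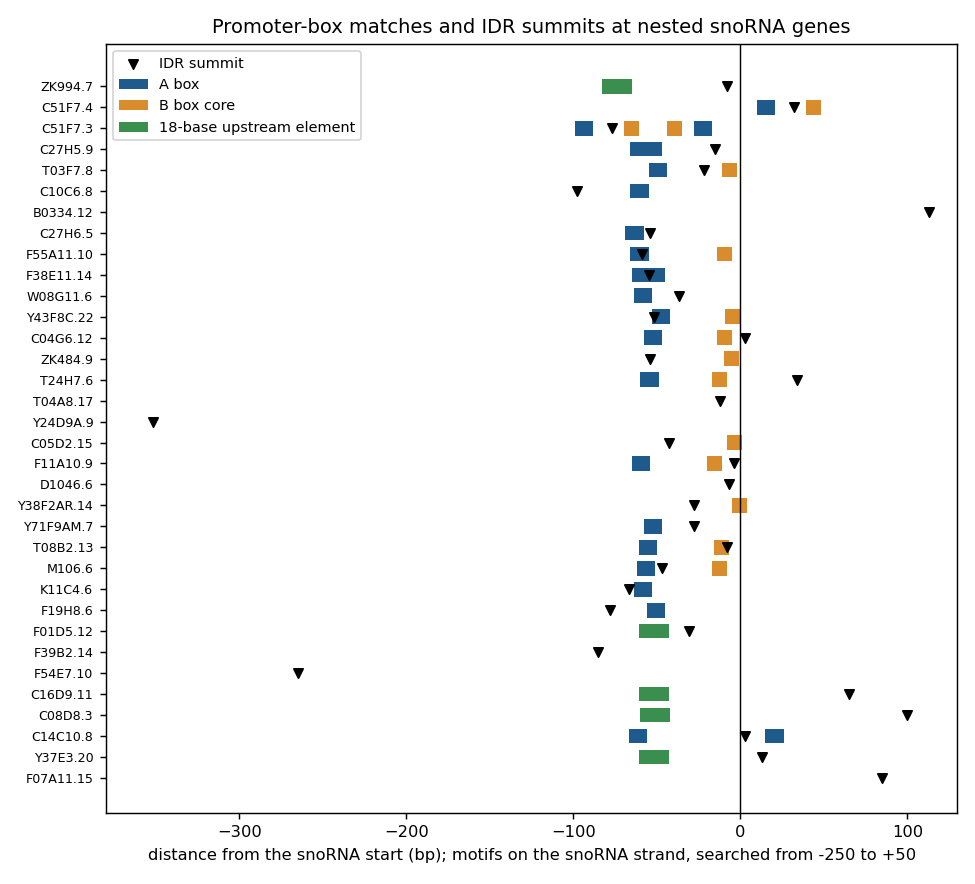
Matches on the snoRNA strand to the A box (blue), the B box core (orange) and the 18-base element (green), and the IDR summit (triangle), by distance from the snoRNA start (bp), for the 34 nested snoRNA genes with an IDR summit in order of pooled signal. The left end of an A box lies from -75 to -50 bp in 17 genes and that of the B box core from -25 to 0 bp in 11.

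Sorted by these places, 32 of the 216 members had an A box or GTTCNANNC in range. Of the 32, 20 had an IDR summit (62.5%, 45.3 to 77.1, background 2.36%). In both relaxed replicate lists, 27 of the 32 had a summit (background 10.2%). Only 4 of the 32 had no pooled summit (background 79.2%). At the 168 members with none of the 3 patterns in place, 9 had an IDR summit (5.36%, 2.84 to 9.87). Of the snoRNA genes that are not nested, 17 of 20 with such boxes had an IDR summit (85%, 64 to 94.8), and 6 of 95 with none of the patterns (6.32%). Because the ranges were set on box positions seen at genes with peaks, these shares describe the sorting and support nothing further.

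The 20 genes with boxes in place and an IDR summit had pooled signals from 94.62 to 344.1 and a median summit position of -40 bp. The highest was C27H5.9, which lies in pdl-1 on the strand opposite to the host, with 187.8 in replicate 1 (rank 33) and 157.7 in replicate 2 (rank 28). T03F7.8, opposite to the cuticlin-like gene cutl-18, had 159.5 in replicate 1 (rank 35) and 119.7 in replicate 2 (rank 48). C10C6.8, in catp-8 on the same strand, had 136.3 in replicate 1 (rank 51) and 122.8 in replicate 2 (rank 43). These 3 genes were within the 100 strongest peaks of both replicates, as 6 of the 34 were in all. Next by pooled signal came C27H6.5 in unc-41, F55A11.10 in F55A11.6, F38E11.14 in the cyclic-nucleotide-gated channel gene cng-3, W08G11.6 in W08G11.3, Y43F8C.22 in Y43F8C.7, C04G6.12 opposite to the MAP kinase gene mpk-2, ZK484.9 opposite to the ABC transporter gene haf-9, T24H7.6 in T24H7.2, C05D2.15 in madf-11 and F11A10.9 in the RNA-binding protein gene rbm-34. The lowest 7 were Y38F2AR.14 in Y38F2AR.12, Y71F9AM.7 in the Golgi complex gene cogc-3, T08B2.13 in the phenylalanyl-tRNA synthetase gene fars-1, M106.6 in the condensin gene mix-1, K11C4.6 in the beta-spectrin gene unc-70, F19H8.6 in mltn-9 and C14C10.8 in ril-2. The last of these, C14C10.8, had 52.9 in replicate 1 (rank 486) and 41.7 in replicate 2 (rank 661).

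The 18-base element was in place, from -120 to -50 bp on the snoRNA strand, at 16 members. The pattern was written after start regions of genes with peaks had been seen, so the shares with a summit describe the sorting. Of the 15 snoRNA genes that are not nested and carry it, 3 had an IDR summit (20%, 7.05 to 45.2). Among the 16 members, 5 had an IDR summit (31.2%, 14.2 to 55.6, background 2.36%). At 9 there was a pooled relaxed summit only (background 18.5%), and at 2 no pooled summit (background 79.2%). Each of these 2 had a weak summit in 1 replicate list, Y48A6C.10 with 16.63 in replicate 1 (rank 16084) and Y73B6A.14 with 13.58 in replicate 2 (rank 18595). The 5 were ZK994.7, F01D5.12 in F01D5.10, C16D9.11 in rol-3, C08D8.3 in C08D8.1 and Y37E3.20 in the phospholipid-synthesis gene pcyt-2.1. Apart from ZK994.7 their peaks were below the median signal of the IDR list, 120.4, with pooled signals of 109.7, 99.2, 97.5 and 93.6 in that order. Their summits, at -31, 65, 100 and 13 bp, and that of ZK994.7 at -8 bp, had a median of 13 bp, against -40 bp at the genes with boxes. The replicates placed the summit of C08D8.3 at 88 bp (replicate 1) and -118 bp (replicate 2), and that of Y37E3.20 at 101 and 9 bp. They also differed at genes with boxes, as at F55A11.10 with -73 and 31 bp. The median of only 5 genes is thus uncertain. The element was in place in 29 of 129 snRNA genes (22.5%), 31 of all 346 snoRNA genes (8.96%), 0 of 612 tRNA genes, 4 of 19973 protein-coding genes (0.02%) and 0.238% of all nuclear genes. The class snRNA includes spliceosomal RNAs and, in this annotation, the spliced-leader genes sls-2.

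The 9 remaining genes with an IDR summit had none of the 3 patterns in place. At C51F7.3 the boxes lie outside those ranges, with an A box at -99 bp and GTTCNANNC at -70 bp from its start, and at C51F7.4 the same matches lie inside the gene, at 10 and 39 bp. B0334.12, opposite to the potassium channel gene twk-5, had 93.4 in replicate 1 (rank 117) and 122.2 in replicate 2 (rank 45), with its summit 113 bp downstream of the start. T04A8.17 opposite to ppat-1, D1046.6 in cfim-2, a gene for an mRNA cleavage factor, and F07A11.15 opposite to the corepressor gene din-1 had summits at -12, -7 and 85 bp. Their signals in replicate 1 were 81.3, 70.4 and 42.4, and in replicate 2 they were 79.7, 86.8 and 53.0. F07A11.15 had the lowest rank of the 34 in replicate 1, at 841. Its summit lay at -86 bp in replicate 1 and at 86 bp in replicate 2, and that of D1046.6 at 82 and -15 bp. No match in these windows says only that the patterns as written are not there.

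At the other 3 of the 9 the summit lay in the start window of the host as well as in that of the snoRNA gene. Y24D9A.9 in the ribosomal protein gene rpl-7A had its summit at -352 bp, F54E7.10 in the ribosomal protein gene rps-12 at -265 bp and F39B2.14 in tmem-107 at -85 bp. Each of these snoRNA genes starts within 282 bp of its host's start, and each summit lay upstream of the host and within the host's own start window. For Y24D9A.9 the signal was 98.45 in replicate 1 (rank 105) and 54.8 in replicate 2 (rank 326). At F39B2.14, as at several others of the 34, the replicates differed in position. The summit was 54 bp downstream of the snoRNA start in replicate 1 and at -87 bp in replicate 2. The window of F54E7.10 also holds the start of another protein-coding gene, ska-3. Binding at the snoRNA and at these other starts cannot be told apart here. At the other 31 of the 34 genes the summit lay inside the host's span and outside the host's start window.

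The 13 ribosomal protein hosts hold 19 members, all on the host strand and all in an intron. None of the 3 patterns was in place at any of the 19. The 2 with an IDR summit were Y24D9A.9 and F54E7.10, whose summits also lay in the host's start window. A pooled summit was in the window of 7 of the 19 (36.8%, 19.1 to 59), an interval that includes the background of 20.8%. Of these summits, 0 lay within 100 bp upstream of the snoRNA. The nearest upstream was that of Y43B11AR.7 in rps-4, at -105 bp in the pooled list. In replicate 1 it lay at -98 bp, and replicate 2 had none in the window. The RNAs start a median of 29 bases after the beginning of the intron (6 to 72) in introns of median length 221 bases (82 to 296). The start regions of F54E7.11 in rps-12 and C16A3.11 in rps-13, 2 examples with no summit in any list and a start over 400 bp into the host, show none of the patterns.
F54E7.11, chrIII:5679645-5679754, plus strand: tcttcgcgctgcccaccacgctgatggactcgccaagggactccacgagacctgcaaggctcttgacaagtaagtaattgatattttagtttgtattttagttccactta
C16A3.11, chrIII:6374539-6374648, minus strand: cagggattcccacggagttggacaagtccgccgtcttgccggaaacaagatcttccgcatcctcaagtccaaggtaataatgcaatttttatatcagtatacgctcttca

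In same-strand introns, the 26 members with boxes in place started a median of 127.5 bases after the beginning of the intron, in introns of median length 284 bases. Those with the 18-base element started a median of 385.5 bases into introns of 765.5 bases (n = 10). At members with none of the patterns in place, including those in ribosomal protein genes, the medians were 103 and 390 bases (n = 113). Other host groups were small: translation factor genes held 5 members and chaperone genes 2, with 0 IDR summits in either. The Wilson intervals of these shares reach up to 43.4% and 65.8%, so they say little.

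The intervals overlapped between strands and between near and far places in the host. On the host strand 27 of 182 members had an IDR summit (14.8%, 10.4 to 20.7, background 2.36%). On the opposite strand 7 of 33 had one (21.2%, 10.7 to 37.8). The remaining member lies in hosts on either strand and had none. The start lay a median of 2020 bp from the host start at the 34 genes with an IDR summit, 2369 bp at the 61 with a pooled relaxed summit only and 1824 bp at the 121 with no pooled summit. Of the 150 members that start more than 1000 bp inside the host, 26 had an IDR summit (17.3%, 12.1 to 24.2, background 2.36%). Of the 66 nearer the host start, 8 had one (12.1%, 6.27 to 22.1). The host's own start had an IDR summit for 3 of the 34 members with an IDR summit and for 15 of the 182 without. Members that share a host were counted separately, and the share among all protein-coding genes was 0.976%. For the 3 of the 34, the summit in the snoRNA window itself lay in the host's start window. Their count is therefore not independent of the grouping, and the groups cannot be compared on it.

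**Figure D5:**
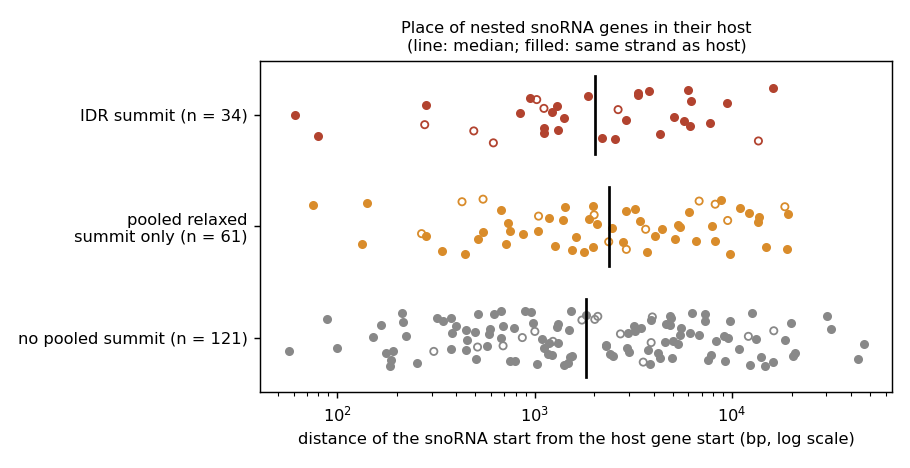
Distance of the snoRNA start from the host gene start (bp, log axis) for nested snoRNA genes with an IDR summit (n = 34), a pooled relaxed summit only (n = 61) and no pooled summit (n = 121); filled points are on the host strand, open points are not, and lines are medians. The medians are 2020, 2369 and 1824 bp, and the distributions overlap throughout.

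By annotation, 178 members lie in an intron of at least 1 host transcript. Of the 178, 32 had an IDR summit (18%, 13 to 24.3, background 2.36%). Of the 19 others that overlap a coding exon 2 had one, C51F7.4 and F39B2.14, and of the 19 that overlap only noncoding exons 0 had one, for which the Wilson interval reaches up to 16.8%. By chromosome the counts were 5 of 44 on I (11.4%, 4.95 to 24), 8 of 43 on II (18.6%, 9.74 to 32.6) and 3 of 44 on III (6.82%, 2.35 to 18.2). They were 6 of 36 on IV (16.7%, 7.87 to 31.9), 12 of 39 on V (30.8%, 18.6 to 46.4) and 0 of 10 on X (0 to 27.8). Apart from V, the highest, every interval includes the 15.7% of all members. Shares of all genes by chromosome were not counted. Members with an IDR summit were shorter RNAs, with a median of 107 bases, against 127 for all members. A near-identical copy, at least 90% identical over 90% of its length, exists elsewhere in the genome for 20 members, of which 1, Y24D9A.9, had an IDR summit. Another gene start lay in the window of 20 of the 34, in 13 cases that of a gene of the broad class ncRNA and in 0 cases that of a tRNA gene. An ncRNA start was thus in the window of 38.2% of the 34 members with an IDR summit, and of 27 of the 182 without (14.8%). Which of the overlapping transcripts a peak belongs to was not tested.

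Just under the IDR threshold, the 5 strongest relaxed summits were at ZK546.18 in mdt-4, F25H5.9 in pyk-1, T06D8.11 in plpr-1, C17D12.8 opposite to pcmd-1 and Y71D11A.7 in acsd-1. Their pooled signals were 87.15, 85.52, 82.96, 75.49 and 74.15, and their summits lay at -86, -44, 34, -15 and -49 bp. The replicates differed most at T06D8.11, with 60.71 in replicate 1 (rank 336) and 21.45 in replicate 2 (rank 5244). The signal of the pooled list ran without a gap across the threshold, since the weakest IDR peak had 88.9 and the strongest peak outside the list 88.8.

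The starts of genes for snoRNP proteins, which bind the snoRNAs, were read in the same way. Of 8 such genes, namely fib-1 (fibrillarin), nol-56, nol-58, snu-13, dkc-1 (dyskerin), nola-3, Y48A6B.3 and garr-1, 0 had an IDR summit (background 2.36%), 5 had a pooled relaxed summit (background 20.8%) and 3 had a summit in both replicates (background 10.2%). So few genes say little about the class. The highest pooled signal was 71.35 at fib-1, rank 886 of the pooled list, with 29.46 in replicate 1 and 42.51 in replicate 2.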

How the data were processed

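ChIP-seq peak lists in narrowPeak format on build ce11 were used, 1 relaxed list for each of the 2 replicates, 1 for the pooled replicates and the optimal IDR list, per the file listing deposited with the samples. No source used here names the aligner or the peak caller. The signal of each peak is a score deposited by the authors on a scale that is not stated. The −log10 of the q-value that the authors deposited was 3.18 for every IDR peak and was not used further. The 552 IDR peaks are the 552 strongest of the pooled list. Lists on ce10 were not analysed here, for want of a gene annotation on that build.

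Genes came from Ensembl release 115 and sequence from the RefSeq genome of WBcel235. A gene took the strongest summit from 500 bp upstream to 200 bp downstream of its start. Its host was the smallest protein-coding gene holding it (4 members have several). Motifs were searched on both strands, 250 bp upstream to 50 bp downstream. Copies were found with blastn 2.17.0. Results are counts and medians with 95% Wilson intervals and no tests, since all samples form 1 group. Columns of samples of other series were 0. The members, lists and motifs were chosen with earlier results of these data known. Named genes were the members with an IDR summit, the 5 strongest without one, those nearest the window edges and the snoRNP protein genes. The counting code was tested on simulated data. Python 3.11.15, numpy 2.4.6, scipy 1.17.1 and matplotlib 3.10.9 were used.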

Additional observations from a re-analysis of the deposited data

How the results depend on the processing

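The 9 results described were recomputed under the alternatives that apply to each, giving 54 values, of which 51 kept their direction and stayed within 1.5 times a count, 1 SD over genes of a median or the interval of the difference. The number of nested snoRNA genes with an IDR summit was 25 with the 276 strongest IDR peaks (background 1.17%), 41 with a window of 1000 bp upstream (2.83%), 28 with 250 bp upstream to 50 bp downstream (1.41%), 39 by whole peak interval (2.72%) and 32 of 178 when nested meant within 1 intron. From the strongest peaks of a single replicate it was 33 to 36. Without summits in the host start window it was 31, and without members that have a copy 33, both chosen after seeing the data. The difference in share, nested minus not nested, was 1.31 points when nested meant within 1 intron, against -4.26, and from -6.26 to -2.56 with a single replicate. Within 250 bp upstream to 50 bp downstream, 56 members had a pooled relaxed summit, against 95, and 36 a summit in both replicate lists, against 55; this window is shorter by construction. No paired analysis was possible because both samples belong to 1 group. Read depth and the spread between separate animals are unknown, and a summit near several gene starts was counted for each of them.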
